A study of Mus musculus with 4 samples.

Results

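The 10 genes described here (Rsad2, Ifit1, Ifit2, Ifit3, Isg15, Mx1, Oasl2, Ifi44, Usp18 and Ifih1) are antiviral genes induced by type I interferon, taken from the 33696 genes of the files and followed by cell class, fibroblast state, region, library and mouse. They were selected on earlier results of these data, the UMI counts of interferon-stimulated genes by cell class, library and mouse, so those values are given as a description. Single-nucleus RNA sequencing (snRNA-seq) was done at 21 days post-injury (dpi) on adult mice with photothrombotic (PT) cortical injury, a light-induced clot of cortical vessels. One gene expression library came from control mice, whose genotype the labels give as WT, and one from Cxcl12-cKO mice, labelled Col1a2(creER); Cxcl12(flox), in which tamoxifen was used to delete the chemokine gene Cxcl12 in cells that had used the fibroblast promoter Col1a2. Tissue of 1 male and 1 female mouse was combined in each library, and lesional and parenchymal nuclei, tagged apart before they were mixed at 75% and 25%, were read from 4 matrices.

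With 1 library per genotype there is no replicate library and no test between them. Intervals are exact 95% intervals that cover counting error only. They are Poisson intervals for a level (CPM, UMIs of a gene per 1000000 UMIs of the same nuclei, each UMI being 1 counted RNA molecule), binomial (Clopper-Pearson) intervals for a share, and conditional binomial intervals for a ratio. Nuclei were assigned to the female or the male mouse of a library by sex-linked transcripts, so sex and animal cannot be told apart, and differences between mice were not tested either. Cxcl12 itself stood at 105.9 CPM (1511 UMIs) in lesional fibroblast-like nuclei of the control-labelled library and at 214.7 CPM (3141 UMIs) in those of the cKO-labelled library. That goes against the labels as far as 3′ counts can show it, since the sources used here do not say whether the counted end lies in the deleted part. The libraries are therefore named by their labels throughout, as control-labelled and cKO-labelled.

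Of 23489 barcodes, 21743 nuclei were kept, with 8095 and 7933 from the lesion (labelled control and Cxcl12-cKO, median 2962 and 2975 UMIs) and 2877 and 2838 from the parenchyma (median 15915 and 16648 UMIs). They held 6491 and 5813 UMIs of the 10 genes in the lesion and 403 and 466 in the parenchyma. Classes are named "-like" because they were rebuilt from marker genes. In every class with at least 50 nuclei the summed markers of that class were higher than in the other nuclei, and 1 of 6 bone matrix markers was at 0. Since the same markers named the classes, this is a description and no check of the names. Leading genes of the oligodendrocyte precursor-like class included Cenpf and Ckap2, genes of cell division. Those of the endothelial-like class included Myh11, a smooth muscle gene, so both classes may hold other nuclei as well. The libraries shared 47 barcodes.

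Type I interferons bind a receptor that most cells carry, and the signal reaches the nucleus as a complex of transcription factors. This complex binds a short element, the interferon-stimulated response element, near the start of its target genes. Ifih1 encodes MDA5, a sensor of long double-stranded RNA. The Ifit proteins bind foreign RNA, Rsad2 encodes viperin, an enzyme that makes a chain-terminating nucleotide, Mx1 encodes a dynamin-like GTPase that acts on viral particles (many laboratory strains carry a defective allele), and Oasl2 belongs to the oligoadenylate synthetase family. Isg15 is a ubiquitin-like modifier, Usp18 removes it from proteins and dampens the interferon receptor, and Ifi44 is a further antiviral target.

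The promoters of members whose element could be looked up are shown because this element is the feature that names the group. GAAANNGAAA, the repeated core of the element (N is any base), or its reverse complement TTTCNNTTTC was searched in the RefSeq promoter table of build GRCm38.p6, an older build than the GRCm39 of the counts. The table held 8 members, not Usp18 or Mx1. In 4 of these 8 the letters occurred within 250 bases before the start, against 2.98% of 32851 promoters, 3.46% of 27025 genes and 17 of 45 (37.8%) other type I interferon-stimulated genes in the table. The last 160 bases before the start of those 4 are printed on the strand of the gene, with matches in capitals. Ifit1 lies at chr19:34640729-34640888 (+), Ifit3 at chr19:34583369-34583528 (+), Isg15 at chr4:156200819-156200978 (-) and Rsad2 at chr12:26456453-26456612 (-).
Ifit1: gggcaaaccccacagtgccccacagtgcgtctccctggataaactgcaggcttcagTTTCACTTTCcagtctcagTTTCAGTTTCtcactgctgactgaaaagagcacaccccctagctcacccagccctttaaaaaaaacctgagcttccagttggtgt
Ifit3: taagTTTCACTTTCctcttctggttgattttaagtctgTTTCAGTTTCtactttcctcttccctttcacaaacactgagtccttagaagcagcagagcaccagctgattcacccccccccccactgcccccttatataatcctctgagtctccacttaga
Isg15: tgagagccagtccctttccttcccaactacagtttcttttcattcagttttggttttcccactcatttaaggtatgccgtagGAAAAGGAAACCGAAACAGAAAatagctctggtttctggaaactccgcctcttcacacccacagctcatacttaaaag
Rsad2: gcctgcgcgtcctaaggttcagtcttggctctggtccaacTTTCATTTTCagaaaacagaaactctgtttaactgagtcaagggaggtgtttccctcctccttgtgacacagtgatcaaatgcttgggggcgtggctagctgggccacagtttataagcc
Ifit1 and Ifit3, neighbours in a gene cluster on chromosome 19, each held 2 matches with the same letters (TTTCACTTTC and TTTCAGTTTC). In Isg15 the capitals are 3 overlapping matches (GAAAAGGAAA, GAAACCGAAA and GAAACAGAAA). Rsad2 held 1 match, TTTCATTTTC. No match with these letters was found for Ifi44, Ifih1, Oasl2 or either start of Ifit2. A match is a description of letters and not a binding site.

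Lesional fibroblast-like nuclei held 57.8% of all UMIs of the 10 genes and lesional myeloid-like nuclei 23.5%. Of the 7611 UMIs in the former, 2559 were Ifih1 and 2254 Oasl2, so sums lean on these 2 genes. The summed level was 263 CPM (258 to 269) in lesional fibroblast-like and 261 CPM (252 to 271) in lesional myeloid-like nuclei with both libraries pooled. Within a library the order differed, with fibroblast-like nuclei at 283 CPM (274 to 292) and myeloid-like nuclei at 315 CPM (299 to 331) in the control-labelled library, and 244 (236 to 252) and 224 CPM (213 to 236) in the other. Small lesional classes stood at a similar height. Endothelial-like nuclei were at 334 CPM (289 to 385) in the control-labelled library and 258 CPM (207 to 319) in the cKO-labelled library, and T cell-like nuclei at 280 (214 to 359) and 213 CPM (150 to 294). Lesional astrocyte-like nuclei were lower, at 132 CPM (117 to 147) and 131 CPM (118 to 146). Bone matrix-like nuclei (120 and 143 CPM) and oligodendrocyte precursor-like nuclei (119 and 87.1 CPM) stood beside them. Oligodendrocyte-like nuclei were at 115 CPM (90.2 to 146) and 61.5 CPM (44.5 to 82.8). Neurons were lowest, with lesional inhibitory neuron-like nuclei at 30.6 and 18.6 CPM and parenchymal excitatory neuron-like nuclei at 6.21 CPM (5.45 to 7.04) and 7.64 CPM (6.79 to 8.57).

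**Figure D1:**
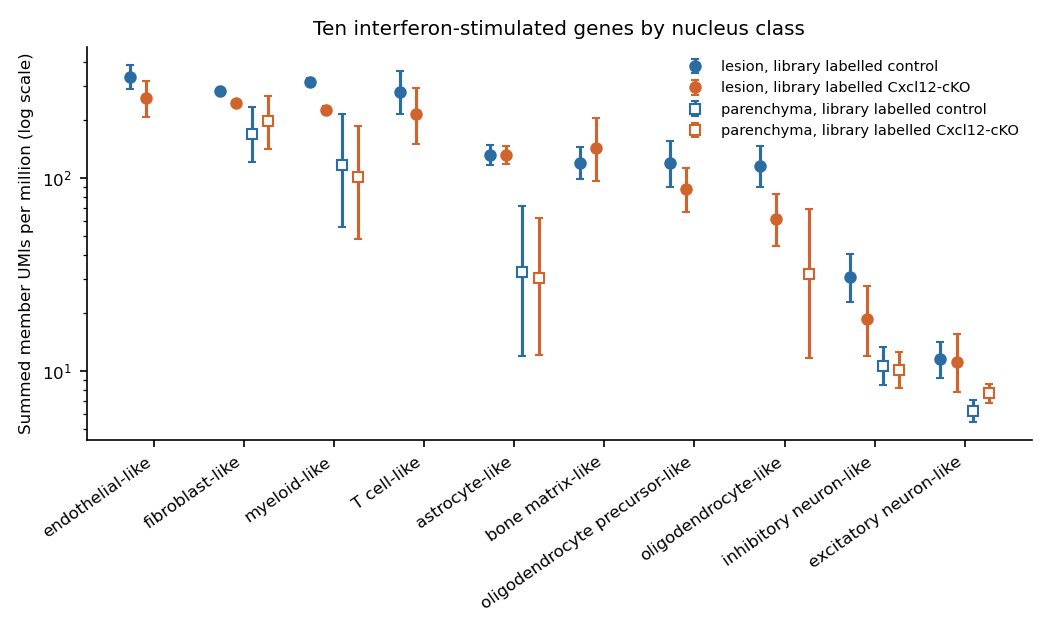
Summed level of the 10 genes (CPM, log axis) by nucleus class, library and region, where points are single libraries and bars are exact 95% Poisson intervals. Lesional fibroblast-like, myeloid-like, endothelial-like and T cell-like nuclei sit above 200 CPM in both libraries, and parenchymal excitatory neuron-like nuclei sit below 10 CPM.

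The single members followed this order only in part. Fibroblast-like nuclei of the lesion held 67.0% of all Ifi44 UMIs and 66.5% of all Oasl2 UMIs, but 38.7% of those of Ifit2 and 40.3% of those of Mx1. Mx1 was at 11.4 CPM (10.2 to 12.7) in lesional fibroblast-like and 30.6 CPM (27.5 to 33.9) in lesional myeloid-like nuclei, and Rsad2 at 12.8 CPM (11.5 to 14.1) and 24.6 CPM (21.9 to 27.6). Ifit1 had the reverse order, with 14.4 CPM (13.1 to 15.9) in fibroblast-like and 5.82 CPM (4.53 to 7.36) in myeloid-like nuclei. Both classes therefore held a different mix of the 10 genes.

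In lesional fibroblast-like nuclei the 10 genes summed to 4036 UMIs in 4150 nuclei of the control-labelled library (283 CPM, 274 to 292) and to 3575 UMIs in 4070 nuclei of the cKO-labelled library (244 CPM, 236 to 252). The log2 ratio of Cxcl12-cKO over control was -0.21 (-0.28 to -0.15). Between the females it was -0.22 (-0.31 to -0.13), while between the males it was 0.013 (-0.11 to 0.14). With the Slco4a1-led subcluster, described further on, left out, it was 0.011 (-0.072 to 0.095).

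Rsad2 (ENSMUSG00000020641), the viperin gene, differed most. It had 273 UMIs in the control-labelled library (19.1 CPM, 16.9 to 21.5) and 96 UMIs in the cKO-labelled library (6.56 CPM, 5.31 to 8.01), a log2 ratio of -1.54 (-1.90 to -1.20). By mouse it stood at 34.3 CPM in the female and 6.34 CPM in the male labelled control, and at 8.78 CPM in the female and 4.04 CPM in the male labelled Cxcl12-cKO. Within each library the female mouse was above the male, and the female labelled control was far above the other 3 mice. The log2 ratio between females was -1.95 (-2.47 to -1.49), and that between males, -0.64 (-1.45 to 0.13), was within counting error.

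Mx1 (ENSMUSG00000000386), the dynamin-like GTPase, was the other member at least 1.5-fold lower, with 198 and 132 UMIs (13.9 and 9.02 CPM; log2 ratio -0.62, -0.95 to -0.30). It too was highest in 1 mouse, at 26.5 CPM in the female labelled control against 15.0 CPM in the female labelled Cxcl12-cKO and 3.88 and 4.85 CPM in the males. In the male mice its ratio had the other sign (0.31, -0.52 to 1.19). Ifi44 (ENSMUSG00000028037) had 175 and 120 UMIs (12.3 and 8.20 CPM; -0.58, -0.93 to -0.24), or 19.3 and 12.3 CPM for females and 5.11 and 4.36 CPM for males.

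Of the RNA-binding Ifit genes, Ifit1 (ENSMUSG00000034459) had 233 and 184 UMIs (16.3 and 12.6 CPM; -0.38, -0.66 to -0.092). Ifit2 (ENSMUSG00000045932) was the single member above 0, with 172 and 201 UMIs (12.1 and 13.7 CPM; 0.19, -0.11 to 0.49), within counting error. Ifit3 (ENSMUSG00000074896), whose reads can be split with its near-identical neighbour Ifit3b and are therefore uncertain, had 138 and 137 UMIs (9.67 and 9.36 CPM; -0.047, -0.40 to 0.30). The Ifit genes thus did not share a direction.

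The intervals of Isg15 and Usp18 included 0. Isg15 (ENSMUSG00000035692) had 93 and 76 UMIs (6.52 and 5.19 CPM; -0.33, -0.78 to 0.13). Its protease gene Usp18 (ENSMUSG00000030107) had 287 and 283 UMIs (20.1 and 19.3 CPM; -0.057, -0.30 to 0.19). Oasl2 (ENSMUSG00000029561) had 1133 and 1121 UMIs (79.4 and 76.6 CPM; -0.052, -0.17 to 0.069), and the sensor Ifih1 (ENSMUSG00000026896) had 1334 and 1225 UMIs (93.5 and 83.7 CPM; -0.16, -0.27 to -0.046). With 1.5-fold as the limit, 2 of the 10 members were lower in the cKO-labelled library, where 4.19% of 16569 genes with at least 20 UMIs were, and 0 were higher, where 5.47% were. The counting interval lay below 0 for 5 of 10 members and for 11.9% of all genes. Rsad2 was the single member 1.5-fold lower in both the female and the male mice, a pattern of 1.06% of 13930 genes.

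**Figure D2:**
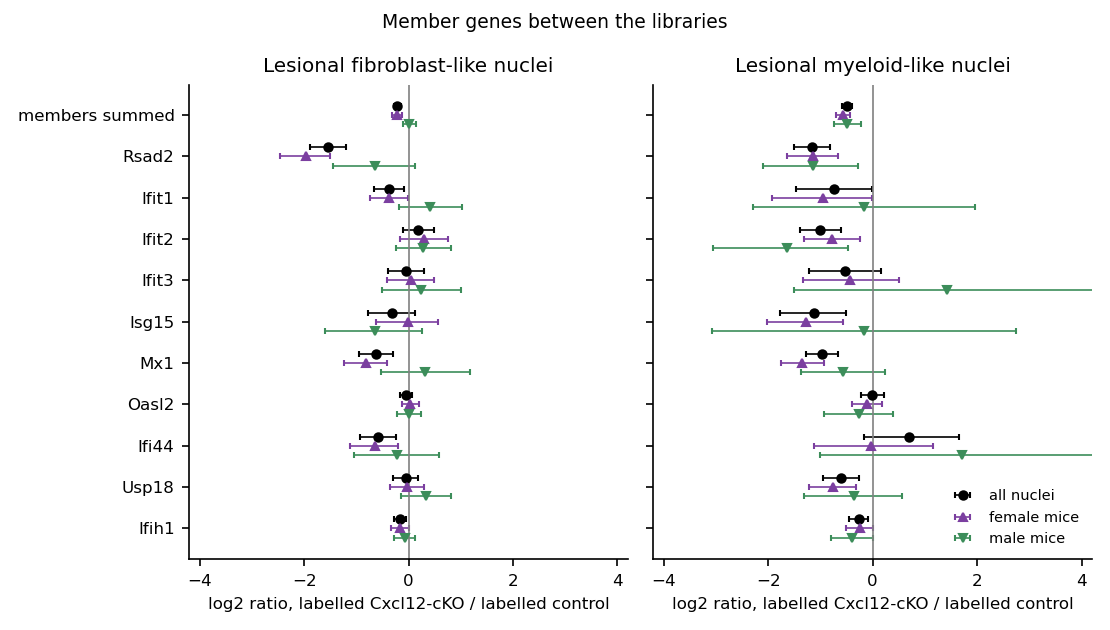
Log2 ratio of the cKO-labelled library over that labelled control for the 10 genes and their sum in lesional fibroblast-like (left) and myeloid-like (right) nuclei, for all nuclei and for the female and male mice apart, with exact 95% counting intervals (the male intervals of Ifit3 and Ifi44 in myeloid-like nuclei run past the axis). In fibroblast-like nuclei Rsad2 lies at -1.54 and the sum at -0.21, and in myeloid-like nuclei the sum lies at -0.49 with most members below 0.

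In lesional myeloid-like nuclei the summed level was 315 CPM (299 to 331; 1526 UMIs in 1822 nuclei) in the control-labelled library and 224 CPM (213 to 236; 1574 UMIs in 2323 nuclei) in the cKO-labelled library, a log2 ratio of -0.49 (-0.59 to -0.39). Unlike in fibroblast-like nuclei, this ratio was below 0 between females (-0.57, -0.70 to -0.43) and between males (-0.49, -0.75 to -0.23). It was -0.56 without the subcluster that carried fibroblast genes. By mouse the sum was 430 and 290 CPM in the females labelled control and Cxcl12-cKO and 179 and 128 CPM in the males, so each male mouse stood below both female mice.

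Rsad2 had 177 and 115 UMIs in these nuclei (36.5 and 16.4 CPM; -1.15, -1.51 to -0.81), with -1.15 between females and -1.14 between males. The male value rests on 1 control-labelled nucleus with 19 of 34 UMIs, and without it, an alternative chosen after seeing the data, it was 0.0064 (-1.08 to 1.12). Mx1 had 209 and 154 UMIs (43.1 and 22.0 CPM; -0.97, -1.28 to -0.67), or 65.7 and 25.8 CPM for females and 21.2 and 14.3 CPM for males. Ifit2, within counting error in fibroblast-like nuclei, was here lower, with 130 and 94 UMIs (26.8 and 13.4 CPM; -0.999, -1.40 to -0.61). The other Ifit genes were sparse, with 37 and 32 UMIs of Ifit1 (-0.74, -1.47 to -0.020) and 38 and 38 UMIs of Ifit3 (-0.53, -1.22 to 0.15). On these few counts Ifit1 was at -0.96 between females and -0.16 between males, and Ifit3 at -0.43 and 1.42.

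Isg15 and its protease gene were both lower in myeloid-like nuclei, with 56 and 37 UMIs of Isg15 (11.6 and 5.27 CPM; -1.12, -1.77 to -0.51) and 148 and 141 UMIs of Usp18 (30.5 and 20.1 CPM; -0.60, -0.95 to -0.26). The ratio of Isg15 was -1.28 between females and -0.16 between males, and that of Usp18 was -0.77 and -0.36. Ifih1 had 445 and 535 UMIs (91.8 and 76.3 CPM; -0.27, -0.45 to -0.083). Oasl2 stood at the same level in both libraries (270 and 390 UMIs; 55.7 and 55.6 CPM; -0.0034, -0.23 to 0.23). Ifi44 had the other sign on few counts (16 and 38 UMIs; 0.69, -0.16 to 1.66). At least 1.5-fold lower were 6 of 10 members, against 6.14% of 14798 genes, and 1 was higher, against 4.85%. The interval lay below 0 for 7 of 10 members and 10.8% of genes. Rsad2 and Ifit2 were 1.5-fold lower in both mice, 2 of the 6 members with enough UMIs in each mouse, against 1.4% of 11150 genes. Without the 1 male nucleus named above Rsad2 was no longer so.

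Fibroblast markers in these myeloid-like nuclei stood at 1137 CPM in the control-labelled library and 716 CPM in the cKO-labelled library (all 8 markers above 0 in both). By mouse they were at 1215 and 466 CPM in the females and 799 and 819 CPM in the males. In the male mice, where the fibroblast markers were at a similar level, the summed ratio was the -0.49 given above, or -0.30 (-0.57 to -0.031) without the nucleus richest in members. T cell markers in the same nuclei also moved with the members, at 42.1 and 25.5 CPM in all nuclei, 58.4 and 21.8 CPM for females and 26.9 and 12.6 CPM for males. Of the 9 T cell markers, 6 were at 0 in the control-labelled male and 3 in the cKO-labelled male. Myeloid markers in fibroblast-like nuclei were at 72.9 and 104 CPM (all 9 above 0). Their part in the summed ratios was not tested.

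The summed members of both classes also differed between the female and the male mouse within each library. In lesional fibroblast-like nuclei the sum was 398 CPM (383 to 415) in the female and 179 CPM (168 to 190) in the male of the control-labelled library, a log2 ratio of female over male of 1.16 (1.05 to 1.26). It was 341 CPM (325 to 357) and 180 CPM (170 to 191) in the cKO-labelled library (0.92, 0.81 to 1.03). In lesional myeloid-like nuclei it was 430 CPM (401 to 460) and 179 CPM (159 to 202) in the first (1.26, 1.06 to 1.46) and 290 CPM (272 to 309) and 128 CPM (112 to 146) in the second (1.18, 0.97 to 1.39). These ratios between the mice of 1 library were larger than the ratios between the libraries in both classes.

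All 10 members were higher in the female than in the male mouse, in both classes and both libraries, where 50.1%, 51.2%, 51.3% and 50.9% of genes were (fibroblast-like control-labelled and cKO-labelled, then myeloid-like). The interval of the ratio lay above 0 for 9 of 10 members in fibroblast-like nuclei of the control-labelled library, where 8.48% of 14246 genes did, and for 9 of 10 in those of the cKO-labelled library (9.62% of 14334 genes). In myeloid-like nuclei it did so for 9 of the 9 members with at least 20 UMIs (9.95% of 11524 genes) and for 8 of 10 (8.67% of 12408 genes). The member whose interval reached 0 in fibroblast-like nuclei was Ifit2 in both libraries (0.43, -0.076 to 0.96; 0.45, -0.014 to 0.93).

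In fibroblast-like nuclei Mx1 had one of the widest gaps, with 157 and 22 UMIs in the female and the male labelled control (2.75, 2.13 to 3.49) and 77 and 30 UMIs in those labelled Cxcl12-cKO (1.62, 1.01 to 2.29). Ifih1, with most UMIs, was at 117 and 70.8 CPM (0.72, 0.54 to 0.90) and at 104 and 67.5 CPM (0.62, 0.44 to 0.81). Oasl2 repeated closely between libraries, at 110 and 54.1 CPM (1.02, 0.82 to 1.22) and 112 and 54.3 CPM (1.04, 0.85 to 1.24). In myeloid-like nuclei Oasl2 was at 86.4 and 27.6 CPM (1.64, 1.16 to 2.17) and 80.3 and 22.9 CPM (1.80, 1.33 to 2.33).

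**Figure D3:**
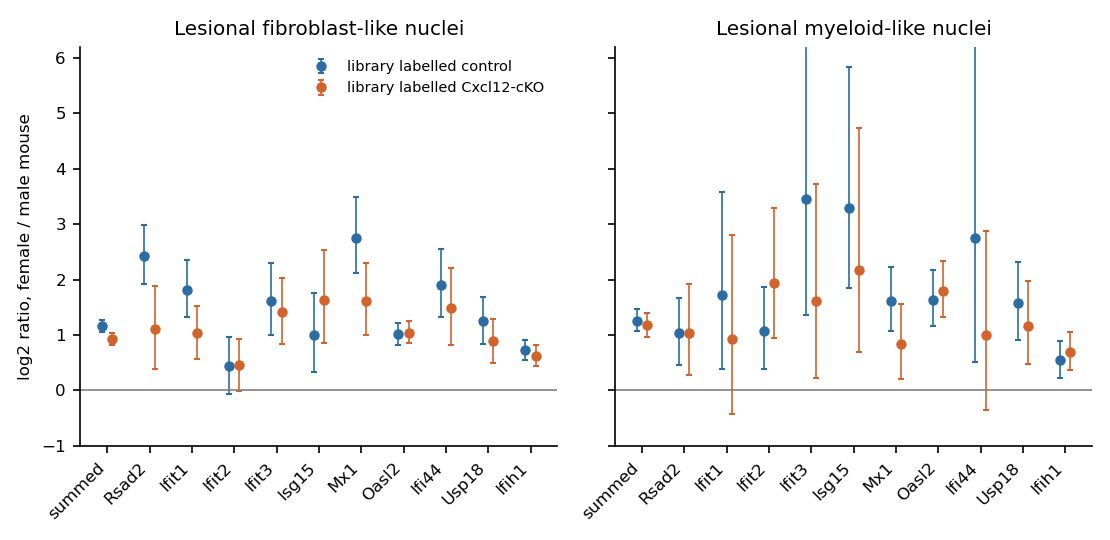
Log2 ratio of the female over the male mouse within each library for the 10 genes and their sum in lesional fibroblast-like (left) and myeloid-like (right) nuclei, with exact 95% counting intervals (those of Ifit3 and Ifi44 in myeloid-like nuclei labelled control run past the axis). All points lie above 0, and the sums lie between 0.92 and 1.26.

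In fibroblast-like nuclei, median UMIs per nucleus were slightly lower in the female than in the male mice (3071 and 3371 labelled control, 3136 and 3467 labelled Cxcl12-cKO). The part of depth in the gap between the mice was not tested in the other classes. Thinned to 1000 UMIs a nucleus, 22.6% (20.6 to 24.6%) of the fibroblast-like nuclei of the female labelled control and 13.8% (12.1 to 15.7%) of the male held a UMI of any member, and 24.8% (22.6 to 27.2%) and 14.1% (12.4 to 15.9%) of those labelled Cxcl12-cKO did. Without thinning these shares were 47.0% and 36.3%, and 52.8% and 37.8%. In parenchymal excitatory neuron-like nuclei, which had the lowest level, the thinned share was 0.601% and 0.688% (unthinned 10.0% and 12.7% at a median of 17478 and 18391 UMIs). Fibroblast-like nuclei of all 4 mice thus held members above that level.

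The pattern extended to other interferon targets. Of the other type I interferon-stimulated genes with at least 20 UMIs, 50 of 51 and 49 of 52 were higher in the female mouse in fibroblast-like nuclei and 50 of 51 and 50 of 51 in myeloid-like nuclei. Their median log2 ratios were 0.85, 0.58, 0.78 and 0.69, while those of all genes tested lay between 0.00020 and 0.0079. Endothelial-like nuclei had 447 CPM in the female and 242 CPM in the male labelled control (0.88, 0.32 to 1.48) and 404 and 150 CPM in those labelled Cxcl12-cKO (1.41, 0.64 to 2.28). Oligodendrocyte precursor-like nuclei had 196 and 39.9 CPM, and 129 and 33.3 CPM. Astrocyte-like nuclei went against it in 1 library, with 138 and 88.6 CPM labelled control (0.63, 0.17 to 1.13) but 92.8 and 134 CPM labelled Cxcl12-cKO (-0.53, -0.95 to -0.11). One nucleus held 33 of the 103 UMIs behind the 134 CPM, and without it the ratio was 0.013 (-0.45 to 0.48). Neuron-like and oligodendrocyte-like nuclei of the 2 mice were within counting error in both libraries.

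Among astrocyte-like nuclei of the lesion the sum was equal in the libraries, but Mx1 had 4 UMIs in the control-labelled library and 39 in the cKO-labelled library (1.76 and 15.5 CPM; log2 ratio 2.99, 1.67 to 5.09). Those 39 UMIs sat in 9 of 522 nuclei, and 35 of them in 5 nuclei. Rsad2, with 35 and 38 UMIs, did not differ beyond counting error (-0.027, -0.73 to 0.68), and 5 nuclei held 21 of the 38. Few nuclei thus set the Mx1 level of this class.

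Fibroblast-like nuclei of the lesion fell into 4 subclusters made without the interferon genes. Summed levels were 153 CPM (141 to 165) in the late inner-like subcluster of the control-labelled library, a state named from Fgf13, Cdh18 and other markers of the study. They were 284 CPM (268 to 302) in the leptomeningeal-like subcluster, 310 CPM (279 to 343) in an unnamed subcluster led by Dcdc2a and 395 CPM (378 to 413) in a subcluster led by Slco4a1, whose nuclei also held all 5 altered dural markers at a raised level. In the cKO-labelled library the same subclusters were at 209 (198 to 221), 239 (224 to 255), 271 (246 to 298) and 303 CPM (284 to 322). Late inner-like nuclei were lowest and Slco4a1-led nuclei highest in both libraries, while the intervals of leptomeningeal-like and Dcdc2a-led nuclei overlapped in both.

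The library ratio went in opposite directions in these states. It was 0.46 (0.32 to 0.59) in late inner-like nuclei, where 10 of 10 members were higher in the cKO-labelled library, as 50.4% of 14019 genes were. Mx1 stood there at 3.39 and 8.05 CPM (1.22, 0.39 to 2.19), Ifi44 at 2.71 and 6.88 CPM (1.30, 0.39 to 2.41), Usp18 at 7.91 and 13.6 CPM (0.77, 0.19 to 1.40) and Oasl2 at 49.5 and 69.0 CPM (0.48, 0.24 to 0.72). This difference had the same sign between females (200 and 309 CPM; 0.62, 0.43 to 0.83) and between males (116 and 143 CPM; 0.31, 0.068 to 0.55).

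In the Slco4a1-led subcluster the ratio was -0.38 (-0.50 to -0.27), in leptomeningeal-like nuclei -0.25 (-0.38 to -0.12) and in Dcdc2a-led nuclei -0.19 (-0.40 to 0.014). Between females the Slco4a1-led ratio was -0.19 (-0.34 to -0.032; 547 and 481 CPM), and between males 0.051 (-0.17 to 0.27; 221 and 229 CPM). This subcluster held 28.0% (26.6 to 29.3%) of control-labelled lesional fibroblast-like nuclei and 20.1% (18.9 to 21.4%) of cKO-labelled ones. With the subcluster shares of the control-labelled library applied to both libraries, the summed ratio of all fibroblast-like nuclei was -0.16 in place of -0.21.

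**Figure D4:**
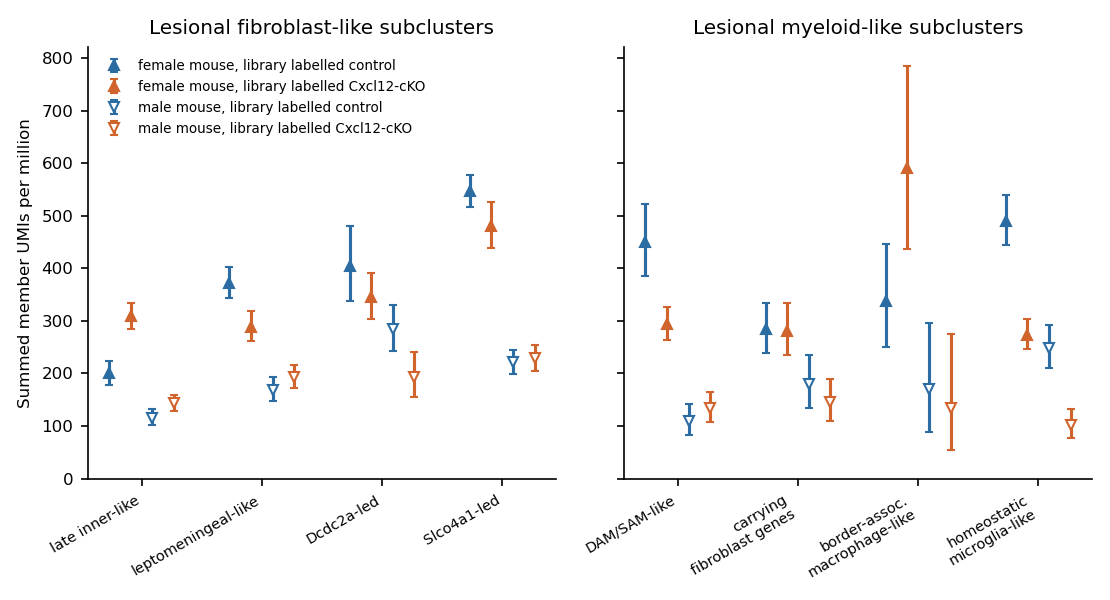
Summed level of the 10 genes (CPM) in the 4 subclusters of lesional fibroblast-like nuclei (left) and in 4 subclusters of lesional myeloid-like nuclei (right), for each mouse of each library, with exact 95% Poisson intervals. Late inner-like nuclei are higher in the cKO-labelled library in the female (200 and 309 CPM) and the male mice (116 and 143 CPM), and the female mice sit above the male mice of the same library in all fibroblast subclusters.

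Rsad2 had the widest gap between the libraries in the Slco4a1-led subcluster. It had 185 UMIs in 1160 nuclei labelled control (38.6 CPM) and 25 UMIs in 820 nuclei labelled Cxcl12-cKO (7.74 CPM), a log2 ratio of -2.29 (-2.98 to -1.71). Of the 185 UMIs, 165 were in the female mouse (70.6 CPM) and 4 in the male mouse (2.27 CPM), against 7 (7.26 CPM) and 8 (5.54 CPM) labelled Cxcl12-cKO. In the female labelled control those 165 UMIs lay in 30 of 552 nuclei, the richest with 33, and 5 nuclei held 113 of them (68.5%). In leptomeningeal-like nuclei Rsad2 was at 14.8 and 7.69 CPM (-0.93, -1.63 to -0.28) and in late inner-like nuclei at 2.71 and 3.69 CPM (0.42, -0.63 to 1.59). Over all lesional fibroblast-like nuclei labelled control, 10 nuclei held 152 of the 273 Rsad2 UMIs (55.7%). With the 10 nuclei richest in members left out of each library, the Rsad2 ratio of this class was -0.87 (-1.31 to -0.45). Without the Slco4a1-led subcluster it was -0.57 (-1.05 to -0.11). Both alternatives were chosen after seeing the data and left out nuclei with high member levels. The cause of the lower Rsad2 was not tested.

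Myeloid-like nuclei differed by state as well. Homeostatic microglia-like nuclei, the largest subcluster, were at 367 CPM (340 to 395) and 216 CPM (198 to 235), a log2 ratio of -0.77, and were lower in the cKO-labelled library in the female (491 and 274 CPM) and the male mice (249 and 102 CPM). The subcluster with markers of disease-associated microglia and scar-associated macrophages (DAM/SAM-like) was at 277 and 219 CPM (-0.34), with 450 and 294 CPM for females and 109 and 134 CPM for males. Border-associated macrophage-like nuclei, 129 and 86 in number, had the other direction (256 and 346 CPM; 0.44), or 339 and 592 CPM for females and 170 and 134 CPM for males. A small monocyte/dendritic-like subcluster (42 and 66 nuclei) was at 598 and 349 CPM and a dividing, Kif11-led one (21 and 50 nuclei) at 234 and 171 CPM. The subcluster that carried fibroblast genes, of which 28.2% of nuclei held transcripts of both sexes, was at 272 and 228 CPM. By mouse the dividing one was at 707 and 240 CPM for females (3 and 28 nuclei) and 106 and 71.9 CPM for males (11 and 9 nuclei). Monocyte/dendritic-like nuclei were at 1027 and 319 CPM for females and 165 and 339 CPM for males, the latter on 3 and 10 UMIs. Microglia-like nuclei were thus the largest, but not the only, myeloid state with the same direction in both mice.

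Nuclei with at least 5 different members numbered 146 of 21743 (0.671%) and held 17.7% of all member UMIs, and 3 nuclei held all 10. Of the 146, 84 were fibroblast-like, 45 myeloid-like, 6 endothelial-like, 5 astrocyte-like and 1 excitatory neuron-like. In the lesion they made up 1.62% of the nuclei of the female and 0.333% of those of the male labelled control, and 0.906% and 0.480% of those labelled Cxcl12-cKO. Among nuclei with transcripts of both sexes the shares were 2.15% and 0.889%. Fibroblast-like nuclei with 5 or more members held fibroblast markers at 4192 CPM and myeloid markers at 92.8 CPM, beside 4220 and 88.6 CPM in those with fewer. Myeloid-like nuclei with 5 or more members held fibroblast markers at 1216 CPM and T cell markers at 178 CPM, beside 883 and 29.97 CPM in those with fewer.

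**Figure D5:**
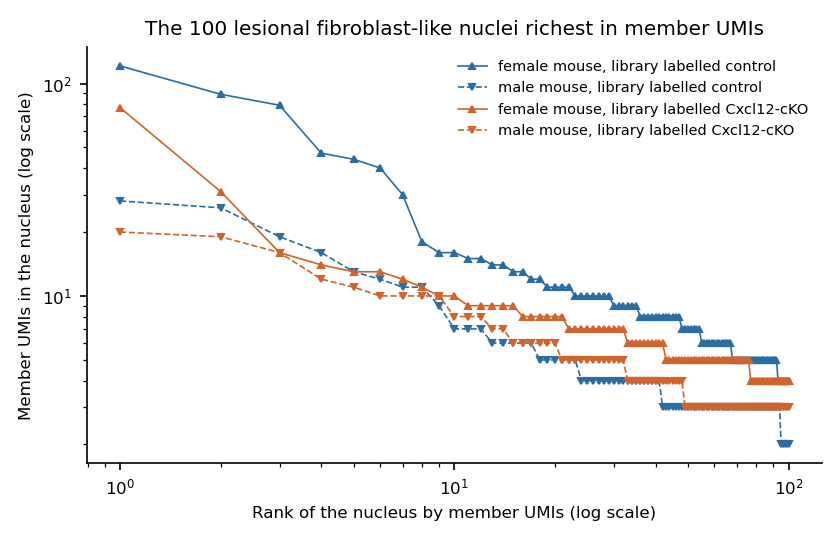
Member UMIs in the 100 lesional fibroblast-like nuclei richest in them for each mouse of each library, ordered by rank (both axes log). The female labelled control has the richest nucleus, with 121 UMIs, and lies above the other 3 mice over most ranks.

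The richest nucleus, in the Slco4a1-led subcluster of the female labelled control, held 121 member UMIs. The 10 richest fibroblast-like nuclei held 544 of 4036 UMIs (13.5%) in the control-labelled library and 255 of 3575 (7.13%) in the cKO-labelled library, and without them the summed ratio was -0.11 (-0.18 to -0.041). Members were found together. Of 173 fibroblast-like nuclei with a UMI of Rsad2, 76.3% held another member too, against 40.4% of the 8047 without, at median depths of 3787 and 3065 UMIs. Mx1 was found in 18.5% of the nuclei with Rsad2 and in 1.62% of those without. Among Slco4a1-led nuclei of the female labelled control, where the median depths with and without Rsad2 were alike (3803 and 3836 UMIs), all 30 nuclei with Rsad2 held another member, against 52.1% of the 522 without. Mx1 was found in 50% and 4.98% of them. In myeloid-like nuclei the shares were 24.1% and 4.83%, at unlike median depths of 3050 and 2250 UMIs.

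A UMI of any member was found in 40.6% and 42.7% of lesional fibroblast-like nuclei (18.2% and 18.3% thinned) and in 33.5% and 36.3% of myeloid-like nuclei (19.3% and 17.8% thinned). The unthinned shares had the opposite order to the CPM and no order was read from them. At least 3 members were found in 4.80% (4.17 to 5.49%) and 4.42% (3.81 to 5.10%) of fibroblast-like and in 5.43% (4.44 to 6.58%) and 2.97% (2.32 to 3.74%) of myeloid-like nuclei.

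Between regions, lesional fibroblast-like nuclei were at 283 CPM against 170 CPM (120 to 233; 51 nuclei) in the parenchyma of the control-labelled library (log2 ratio 0.72, 0.28 to 1.24), and at 244 against 197 CPM (142 to 266; 50 nuclei) in that labelled Cxcl12-cKO (0.29, -0.13 to 0.79). The male mice did not show a clearly higher lesional level, with ratios of 0.018 labelled control and -0.50 labelled Cxcl12-cKO, while the female labelled control was at 1.46. The parenchymal fibroblast-like nuclei of both libraries held 80 member UMIs, and Rsad2 and Mx1 were listed at 0 there, where 3 UMIs, the level of Ifit1, are worth 6.86 CPM. Astrocyte-like nuclei were at 132 and 131 CPM in the lesion against 32.7 and 30.2 CPM in the parenchyma, on 6 and 7 UMIs from 37 and 45 nuclei. In both classes the small parenchymal numbers set the precision.

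Excitatory neuron-like nuclei were at 11.5 CPM (9.19 to 14.2) in the lesion and 6.21 CPM in the parenchyma of the control-labelled library (0.89, 0.52 to 1.25), and at 11.2 CPM (7.78 to 15.5) and 7.64 CPM in that labelled Cxcl12-cKO (0.57, -0.0019 to 1.06). Inhibitory neuron-like nuclei were at 30.6 against 10.6 CPM (1.53, 0.99 to 2.05) and at 18.6 against 10.1 CPM (0.89, 0.17 to 1.52). Oasl2 and Ifih1 were at least 1.5-fold higher in the lesion in excitatory neuron-like nuclei of both libraries, 2 of the 5 and 2 of the 6 members with at least 20 UMIs, beside 6.46% and 9.07% of all genes. Ifit2 was so in inhibitory neuron-like nuclei, 1 of 2 and 1 of 1, beside 10.1% and 9.86% of genes.

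Fibroblast markers moved with this difference. They were at 159 and 93.8 CPM in lesional against 32.9 and 32.8 CPM in parenchymal excitatory neuron-like nuclei, and at 254 and 119 against 44.6 and 39.7 CPM in inhibitory neuron-like nuclei, with all 8 markers above 0. Without the 10% of nuclei with the highest doublet score the ratio of excitatory neuron-like nuclei was -0.067 (-0.63 to 0.42) and -0.26 (-1.09 to 0.41), so a regional difference of the members in these neurons was not detectable there.

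Of the wider pathway, the other type I interferon-stimulated genes followed the members at a smaller size. In fibroblast-like nuclei 36 of 54 were lower and 18 higher in the cKO-labelled library, 4 and 1 of them past 1.5-fold, with a median log2 ratio of -0.13 beside -0.24 for the members and 0.0027 for all genes. By mouse the medians were -0.096 for that list and -0.097 for the members between females, and 0.012 and 0.12 between males, so neither mouse showed the pooled median of the members. Of all genes 49.4% were lower. Sp100, a nuclear body gene, was at 234 and 204 CPM, Rnf213, a large ubiquitin ligase, at 197 and 181 CPM, and Ddx60, a helicase gene, at 166 and 139 CPM. Oas1a, an oligoadenylate synthetase gene, went the other way in both mice (5.26 and 8.82 CPM; 0.74, 0.32 to 1.18), as did Ifi211 (3.01 and 4.44 CPM; 0.55, -0.018 to 1.15).

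In myeloid-like nuclei 45 of 54 were lower and 9 higher, 6 and 0 past 1.5-fold, with a median of -0.27 beside -0.67 for the members and -0.022 for all genes, of which 53.9% were lower. By mouse the medians were -0.40 for that list and -0.77 for the members between females, and -0.19 and -0.31 between males. Epsti1 was at 314 and 256 CPM and Rnf213 at 301 and 238 CPM, while Ddx60 was at 262 and 255 CPM. The genes 1.5-fold lower in both mice were Tor3a (51.1 and 31.6 CPM), Ifi213, a DNA-sensor relative (51.1 and 27.4 CPM; -0.90, -1.18 to -0.62), Mx2, the sister of Mx1 (27.8 and 17.7 CPM; -0.66, -1.02 to -0.29), Dhx58, a regulator of RNA sensing (18.4 and 14.3 CPM), and Cmpk2, the neighbour of Rsad2 (5.57 and 2.42 CPM; -1.19, -2.17 to -0.27).

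Of the conjugation pathway of ISG15, Herc6, its ligase gene in mice, was at 108 and 87.2 CPM in fibroblast-like and 137 and 98.6 CPM in myeloid-like nuclei (-0.31 and -0.48), and Uba7, its activating enzyme gene, was within counting error in both. Of 10 RNA and DNA sensors 6 were lower in fibroblast-like nuclei and 10 in myeloid-like nuclei, where 49.4% and 53.9% of all genes were. Their medians were -0.11 and -0.31, and the first count was near the share of all genes. The sensors include the member Ifih1. Eif2ak2, Rigi, Zbp1 and Dhx58 also stand in the list of other type I interferon-stimulated genes, as do Herc6, Uba7 and, of the signalling genes, Stat2. Counts of these lists are therefore not separate. Sting1, the adaptor of DNA sensing, was at 16.3 and 7.84 CPM in myeloid-like nuclei (-1.05, -1.58 to -0.54). Of 10 receptor and signalling genes 6 were lower in fibroblast-like and 7 in myeloid-like nuclei (49.4% and 53.9% of all genes), with medians of -0.082 and -0.31. The myeloid-like median was -0.38 between females and -0.12 between males. Among these 10, the kinase gene Jak1 and the receptor gene Ifnar2 were within counting error in myeloid-like nuclei (0.034 and 0.0011). MHC class II genes, targets of interferon-γ, had medians of -1.03 and -0.81, with 4 of 7 in fibroblast-like and 5 of 7 in myeloid-like nuclei at least 1.5-fold lower (4.19% and 6.14% of all genes). These medians were -1.17 and -1.39 between females and -0.39 and -0.14 between males. H2-Aa was at 8.13 and 2.32 CPM in fibroblast-like nuclei, and H2-Aa, H2-Eb1 and H2-Ab1 were 1.5-fold lower there in both mice.

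The ligands themselves were hardly seen. Over all nuclei the type I and type III interferon genes summed to 7 UMIs, of which 6 were Ifnk and 1 was Ifna16, and Ifnb1 was at 0. Ifng, the type II interferon gene, had 5 UMIs. None of these UMIs lay in a nucleus with 5 or more members. At this depth the files do not show which cells made interferon.

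Likeness was measured as Pearson's r of log2(CPM + 10) with the summed members over profiles of subcluster, library and mouse, which share libraries, depth and animals, and it carries no p. Over 16 fibroblast-like profiles and 10569 genes the first 8 were Rnf213 (0.96), Parp14, Mx2, Ddx60, Stat2, Phf11d, Lgals3bp and Irgm1, of which 7 stand in the list of other type I interferon-stimulated genes. Over 13 myeloid-like profiles and 7995 genes they included A930037H05Rik (0.90), Rnf213, Irgm1, Stat2, Parp9, Zbp1 and Larp1. Tsix and Xist, the latter used to assign the mice, came at ranks 9 and 10 in myeloid-like nuclei (0.86 and 0.85). Each member is itself part of the sum, so its r is not free of its own counts. Among the members, Oasl2, with 2254 of the 7611 member UMIs of these nuclei, followed the fibroblast-like sum most closely (0.96). Rsad2 (0.67) and Ifit2 (0.30) were the least alike of those named by their library ratio. The reason was not tested.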

How the data were processed

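Nuclei were sorted by DAPI and profiled on the Chromium 3′ v3.1 platform from the lesion and the parenchyma, which carried separate multiplexing tags. The authors deposited unnormalized UMI counts per gene and nucleus, made with Cell Ranger 9.0.0 against GRCm39 per the submitters' processing notes, as 1 matrix per library and region. 12 tag features per file and the tag samples, which hold no gene, were left out.

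From these counts, nuclei outside the 2.5 to 97.5 percentiles of UMIs (757.2 to 36243.8) and of genes (584.2 to 6418.6), or above the 97.5 percentile of mitochondrial share (8.74597%), were removed (1746 of 23489). Counts were scaled to 10000 per nucleus, and 30 principal components of 3000 variable genes (2000 for subclusters), without members, interferon lists or sex-linked genes, were clustered over 20 neighbours with Leiden at resolution 0.25 (16 clusters). A cluster was named from at least 3 raised markers found in 10% of its nuclei. The limits of its mean log2 fold, 0.1 for classes and 0.5 for subclusters, were set after the clusters were seen. The Slco4a1-led fibroblast subcluster met this rule as altered dural (5 markers, mean log2 fold 1.88). It is called by its leading gene here, a departure from the rule. Scrublet marked 3 and 20 nuclei, under 0.5%, and was not used as a filter. The work used scanpy 1.11.5, python-igraph 0.11.9, scikit-learn 1.9.0 and scipy 1.17.1 under Python 3.11.15, with pandas 2.3.3, numpy 2.4.6 and matplotlib 3.10.9.

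UMIs were summed by class, region, library and mouse. Log2 ratios were taken with 0.5 added to each UMI sum. No test was made between libraries, since each genotype had 1. Genes needed at least 20 UMIs over both groups, and 1.5-fold was the limit of a call. Nuclei were assigned to a mouse by Xist against Ddx3y, Uty, Kdm5d and Eif2s3y. Those with transcripts of both (9.75% to 14.3% of a matrix) or neither stayed in the sums of all nuclei. The log2 ratio, the intervals and the 1.5-fold call were tested on simulated Poisson and binomial counts. Such counts do not mimic UMIs concentrated in few nuclei. Clustering, naming, assignment to mice and likeness were not simulated. The members and lists were chosen with earlier results of these data known. By the rule for named genes, all members were named, and of each list the genes with most UMIs and those past 1.5-fold in the same direction in both mice. For these lists the 20 UMIs were counted over all nuclei of both libraries, not in each mouse. The 8 genes of highest r with the sum, of those with at least 200 UMIs, were also named. Alternatives, 14 of them planned, changed the clustering, class rule, filters, doublets, mice, subcluster shares, scaling, weight of nuclei, minimum UMIs (50 or none), pseudocount (1) and depth. One item that the rule would name is not reported here.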

Additional observations from a re-analysis of the deposited data

Results flagged for a closer look

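The summed members or Ifih1 had opposite directions in groups under the same contrast in the following 5 cases. None of these differences was tested. In lesional astrocyte-like nuclei the summed members were lower in the cKO-labelled library in the female mice (log2 ratio -0.57, -0.97 to -0.19) and higher in the male mice (0.59, 0.10 to 1.11). Over the same nuclei the female mouse stood above the male in the control-labelled library (0.63, 0.17 to 1.13) and below it in the other (-0.53, -0.95 to -0.11). Of the 103 UMIs of the cKO-labelled male, 33 lay in 1 nucleus. Without it, an alternative chosen after seeing the data, that male stood at 91.8 CPM, the ratio between males was 0.048 (-0.49 to 0.60) and the female over the male was 0.013 (-0.45 to 0.48), so both opposite directions rest on that nucleus. In parenchymal myeloid-like nuclei the female mice had 9 and 5 UMIs (-1.77) and the male mice 0 and 4 UMIs, too few for a direction. In leptomeningeal-like fibroblast nuclei Ifih1, the MDA5 gene, had 125 and 91.7 CPM between females (-0.45) against 64.8 and 88.5 CPM between males (0.45). The sum in late inner-like fibroblast nuclei was higher in the cKO-labelled library (0.46), while it was lower in Slco4a1-led (-0.38) and leptomeningeal-like nuclei (-0.25).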

How the results depend on the processing

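No paired analysis was possible because the labels give no replicate numbers and each genotype is 1 library. With 1 library a genotype, neither animals nor batches can be told apart from genotype. Of the values behind comparisons, 138 were taken as unchanged, 35 moved and 3 turned from beyond counting error to the other side of 0. The sign turned in 5 of these 176 in all. Unchanged meant within the counting interval of the main value. For the number of members past 1.5-fold, which has no such interval, it meant a change of at most 1.5-fold. The summed fibroblast-like ratio (-0.21) was -0.28 with classes from each nucleus's own marker score, 0.013 in male mice, -0.11 without the 10 richest nuclei and 0.011 without the Slco4a1-led subcluster, both chosen after seeing the data. Its members past 1.5-fold (2) numbered 1 without those nuclei, 0 without that subcluster and 1 at equal subcluster shares. For single genes the sign turned in 27 of 300 values, mostly from ratios within counting error of 0. From ratios beyond it the sign turned for Ifit1 (0.41) and Mx1 (0.31) in male mice and for Mx1 without the subcluster (0.44) in fibroblast-like nuclei. It also turned for Rsad2 in male myeloid-like nuclei without the richest nucleus (0.0064), chosen after seeing the data. The cause was not tested. The summed myeloid-like ratio lay between -0.57 and -0.40 in 15 alternatives, with 2 in place of 6 members past 1.5-fold in male mice.

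Regional ratios moved most. Excitatory neuron-like nuclei labelled control (0.89) were at 1.32 by own score, 0.33 without nuclei of both sexes, -0.067 without the highest doublet scores, 0.30 in the female and 0.25 in the male mouse, and those labelled Cxcl12-cKO (0.57) at 1.91 by own score and -0.26 without the highest doublet scores. Inhibitory neuron-like nuclei (1.53 and 0.89) were at 0.81 without those scores and 2.35 by own score. Fibroblast-like nuclei (0.72 and 0.29) were at 1.46 in the female and 0.018 in the male labelled control and at -0.50 in the male labelled Cxcl12-cKO. The share with any member in fibroblast-like nuclei (40.6% and 42.7%) was 42.2% by own score in the first, 47.0% and 52.8% in female, 36.3% and 37.8% in male mice, 18.2% and 18.3% thinned, and 37.3% and 41.1% without the Slco4a1-led subcluster. In myeloid-like nuclei (33.5% and 36.3%) it was 31.3% without the highest doublet scores in the first, 42.3% and 43.8% in female, 27.6% and 26.4% in male mice, 19.3% and 17.8% thinned, and 30.6% and 34.2% without the subcluster carrying fibroblast genes.

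The share of all genes at least 1.5-fold lower was 2.56% with 50 UMIs as the minimum and 13.7% with none in fibroblast-like nuclei, and 3.63% and 14.9% in myeloid-like nuclei.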
